A study of Homo sapiens with 8 samples.

Results

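Free estradiol was set against estradiol coupled to albumin in SKBR3, a human breast cancer cell line in which the receptor gene ERBB2 (HER2) is amplified. The comparison is the array of cells given estradiol minus the array of cells given E2-BSA, which are 2 of the 8 arrays of the study, and it covers all 19775 genes that have at least 1 probe set carrying a single gene symbol. The labels give 1e-06 M for estradiol and for E2-BSA, both over 3 h, after 4 h in medium whose 10% serum had been treated with charcoal to take out most steroids. The other arrays were of E2-BSA at 1e-06 M with ICI at 1e-05 M, E2-BSA at 1e-06 M with G15 at 1e-05 M, G15 alone at 1e-05 M, ethanol at 0.1% (the vehicle of estradiol), BSA alone at 1e-06 M (the carrier) and untreated cells, all after the same time in the same kind of medium. The sources used here do not give whether the concentration of E2-BSA counts the conjugate or the estradiol on it, so equal hormone doses are not established. Each condition is 1 array, so no difference below has a replicate error and the number of arrays limits the precision.

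Estradiol is a small steroid that crosses the plasma membrane and binds nuclear receptors, of which estrogen receptor alpha is encoded by ESR1. GPER1 encodes a membrane receptor that also answers to estradiol, and SKBR3 cells are commonly described as having GPER and lacking estrogen receptor alpha. Coupling to bovine serum albumin gives a large conjugate meant to act on cells from outside, although preparations may release free hormone. G15 is an antagonist of GPER, and ICI is named in the labels by this abbreviation alone. The ID genes encode helix-loop-helix proteins that bind partner transcription factors and keep them off DNA. They are early targets of bone morphogenetic protein (BMP) signalling, in which ligands act through receptor kinases and SMAD proteins. IFIT genes are induced by interferon and encode proteins that bind foreign RNA.

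ID1, IFIT1 and ID2 were lower with estradiol than with E2-BSA by at least 2-fold, and no gene was higher by that much. ID1 and ID2 belong to the ID inhibitors and IFIT1 to the interferon-induced genes. The 3 lower genes are 0.0152% of the genes compared, and the 0 higher genes 0.00%. At 1.5-fold, 22 genes were lower (0.111%) and 54 were higher (0.273%). As a measure of how far arrays without hormone or antagonist lie apart, BSA minus untreated had 40 genes lower (0.202%) and 70 higher (0.354%) at 1.5-fold. The counts at 1.5-fold are thus no larger than those of that pair. At 2-fold that pair had 0 genes lower and 6 higher, so the number of genes past 2-fold is no larger either. The results below are therefore read gene by gene. In RNA of a whole culture, fewer cells with a transcript and less of it per cell cannot be told apart. The standard deviation over genes was 0.163 for estradiol minus E2-BSA and 0.166 for BSA minus untreated.

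The stretches of 250 bases before the start sites of these genes are shown because the 3 genes stand furthest from the rest, with the searched letters found in them in capitals. They are from RefSeq, on the build GRCh38.p14, and all lie on the plus strand. The windows searched also hold the 50 bases after the start. The ID1 window shown is chr20:31605039-31605288, the ID2 window chr2:8681806-8682055 and the IFIT1 window chr10:89392373-89392622. Capitals mark GGTCA and the TATA box TATAAA in ID1, CAGCTG in ID2 and the interferon-stimulated response element core GAAANNGAAA, here on the other strand, in IFIT1.
ID1: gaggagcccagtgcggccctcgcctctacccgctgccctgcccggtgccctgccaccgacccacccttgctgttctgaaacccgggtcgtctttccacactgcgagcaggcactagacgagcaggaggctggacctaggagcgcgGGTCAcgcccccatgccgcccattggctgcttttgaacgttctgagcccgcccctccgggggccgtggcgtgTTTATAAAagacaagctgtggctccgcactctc
ID2: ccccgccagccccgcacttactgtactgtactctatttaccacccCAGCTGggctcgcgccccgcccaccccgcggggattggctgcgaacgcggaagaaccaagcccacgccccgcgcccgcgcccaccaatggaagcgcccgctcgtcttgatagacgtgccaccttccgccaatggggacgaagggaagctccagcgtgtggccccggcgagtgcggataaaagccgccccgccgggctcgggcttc
IFIT1: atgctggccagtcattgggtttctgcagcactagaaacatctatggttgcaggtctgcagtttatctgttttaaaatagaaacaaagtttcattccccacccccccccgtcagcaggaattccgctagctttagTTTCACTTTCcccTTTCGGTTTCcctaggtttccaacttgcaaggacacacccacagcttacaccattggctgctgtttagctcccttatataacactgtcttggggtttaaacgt

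Of 19 genes searched, 16 had an entry in the promoter table, and letters were looked for on both strands in windows of 250 bases before to 50 after the start. The interferon-stimulated response element core GAAANNGAAA was found in IFIT1, where the copies begin 116 and 103 bases before the start, and also in IFIT3 and SAMD9. It is in 3.57% of all 35116 windows of this length. The full estrogen response element GGTCANNNTGACC was in none of the 16 genes and is in 0.057% of all windows. Its half-site GGTCA was in DLX1, ID1, ID3, IFIT3, PFKFB3 and SMAD7 and is in 37.4% of all windows. The SMAD palindrome GTCTAGAC, in 0.202% of all windows, was found in SMAD6, where it begins 12 bases before the start. The GC element GGCGCC (19.2% of windows) was in CMPK2, EDN2 and PFKFB3, and the cAMP response element TGACGTCA (1.85%) in none of the 16. The E-box CAGCTG (17.9%), of the kind bound by partners of ID proteins, was in CDKN1A, ID2, ID4, IFIT3 and KANK4, and the TATA box (11.5%) in ID1, ID4, IFIT3 and SMAD7. These matches describe letters only.

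**Figure D1:**
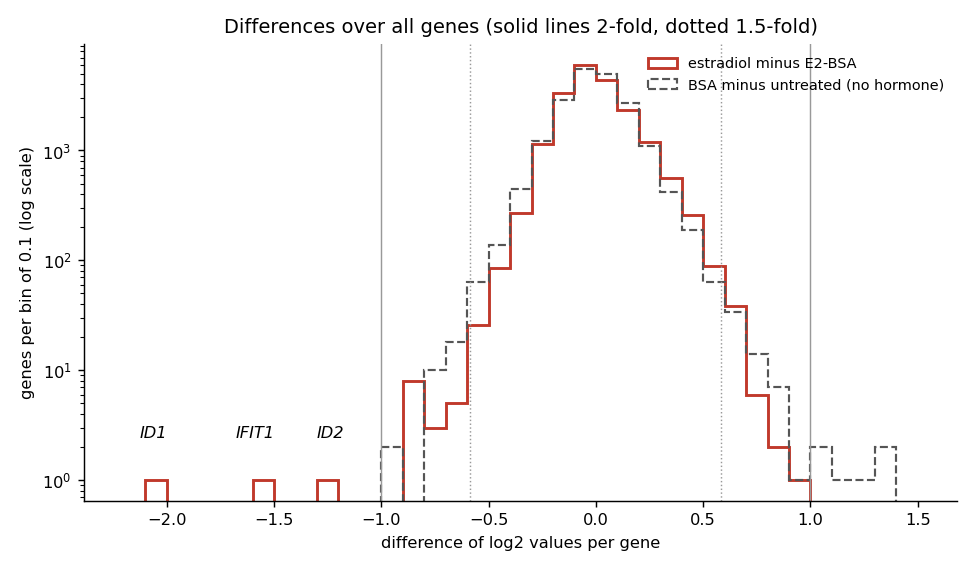
Number of genes (log scale) by difference of log2 values, in bins of 0.1, for estradiol minus E2-BSA (solid red) and BSA minus untreated (dashed grey). Both differences have a similar width (standard deviations of 0.163 and 0.166), and ID1 at -2.06, IFIT1 at -1.59 and ID2 at -1.24 lie apart on the left of the red outline.

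The ID genes were all lower with estradiol. Values are log2 values centred for each probe set by the authors, so 0 is near the middle of the 8 arrays and levels of different genes cannot be set side by side. ID1 stood at -2.02 with estradiol, against 0.04 with E2-BSA. On the other arrays ID1 was at -1.93 with E2-BSA plus ICI, -1.70 with E2-BSA plus G15, 0.00 with G15, -0.34 with ethanol, 0.17 with BSA and 0.01 when untreated. The difference of estradiol minus E2-BSA was -2.06, a level 4.18 times lower with estradiol. ID1 was therefore low on 3 arrays, all of which had estradiol in free or coupled form, and the array with E2-BSA alone lay among the arrays without hormone.

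ID2 stood at -1.24 with estradiol, against 0.00 with E2-BSA, a difference of -1.24 (2.36-fold). It was at -1.22 with E2-BSA plus ICI, -0.58 with E2-BSA plus G15, 0.05 with G15, -0.02 with ethanol, 0.08 with BSA and 0.22 when untreated. Its 2 probe sets gave -1.28 and -1.19. ID3 was at -0.72 with estradiol, against 0.09 with E2-BSA, -0.56 with E2-BSA plus ICI, -0.71 with E2-BSA plus G15, 0.08 with G15, 0.20 with ethanol, 0.18 with BSA and 0.00 when untreated, and its difference was -0.80. ID4 was at -0.70 with estradiol, against 0.14 with E2-BSA, -0.86 with E2-BSA plus ICI, -0.80 with E2-BSA plus G15 and between 0.06 and 0.25 on the 4 arrays without hormone. For each of the 4 ID genes, the estradiol array and both E2-BSA plus antagonist arrays lay below the other 5 arrays.

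Feedback inhibitors of the BMP pathway showed the same order of arrays in part. SMAD7, an inhibitory SMAD that blocks the receptors, was at -0.61 with estradiol, against 0.22 with E2-BSA, a difference of -0.83. It was at -0.66 with E2-BSA plus ICI, -0.53 with E2-BSA plus G15, 0.00 with G15, 0.35 with ethanol, 0.18 with BSA and -0.01 when untreated. SMAD6, the inhibitory SMAD with a preference for BMP receptors, differed by -0.21 as the mean of 4 probe sets, which ranged between -0.84 and 0.11, and its sign turned to 0.11 without _x_at and _s_at probe sets. Among homeobox genes that act downstream of BMP in development, DLX3 was the only member of the list at 1.5-fold. The others differed by -0.57 (DLX1), -0.49 (DLX2), -0.25 (MSX2), -0.03 (MSX1) and 0.04 (DLX5), values given after they were seen. DLX3 was at -0.65 with estradiol, against 0.15 with E2-BSA, with a difference of -0.80. DLX3 was at -0.61 with E2-BSA plus ICI, -0.37 with E2-BSA plus G15, 0.28 with G15, -0.13 with ethanol, 0.30 with BSA and 0.00 when untreated.

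In the list of ID genes and BMP pathway targets, 14 of 17 genes were below 0, 6 were lower at 1.5-fold and 2 of those at 2-fold, and the median difference was -0.46. Over all genes 52.6% were below 0, 0.111% were lower at 1.5-fold and 0.0152% at 2-fold, and the median was -0.01. The other end of the list was held by ATOH8 at 0.16, TGIF1 at 0.06 and DLX5 at 0.04, named after their values were seen. BSA minus untreated gave the same list a median of -0.02 and 10 of 17 genes below 0. The list was drawn up with earlier results of these data known, so its count is not independent evidence. Across the arrays its median was -0.27 with estradiol, 0.09 with E2-BSA, -0.25 with E2-BSA plus ICI, -0.37 with E2-BSA plus G15, 0.11 with G15, 0.13 with ethanol, 0.06 with BSA and 0.01 when untreated.

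The upstream part of the pathway lay closer together. Of 21 genes for BMP ligands, receptors, SMADs and extracellular inhibitors, 16 were below 0, none reached 1.5-fold and the median difference was -0.11. Over all genes 52.6% were below 0, and BSA minus untreated gave this list 12 of 21 below 0. The list median was 0.00 for estradiol minus BSA and -0.01 for estradiol minus untreated. It was 0.12 for E2-BSA minus BSA and 0.10 for E2-BSA minus untreated. SMAD9, a receptor-activated SMAD, differed by -0.41, the ligand BMP4 by -0.26, the receptor ACVR1 by -0.22 and the receptor ACVRL1 by 0.25. The SMAD9 value is the mean of probe sets at -0.96 and 0.14. The helix-loop-helix partners of ID proteins and related factors, 13 genes, had a median of -0.03 with none at 1.5-fold. HES1, a Notch target, differed by 0.24 and HES4 by -0.23.

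**Figure D2:**
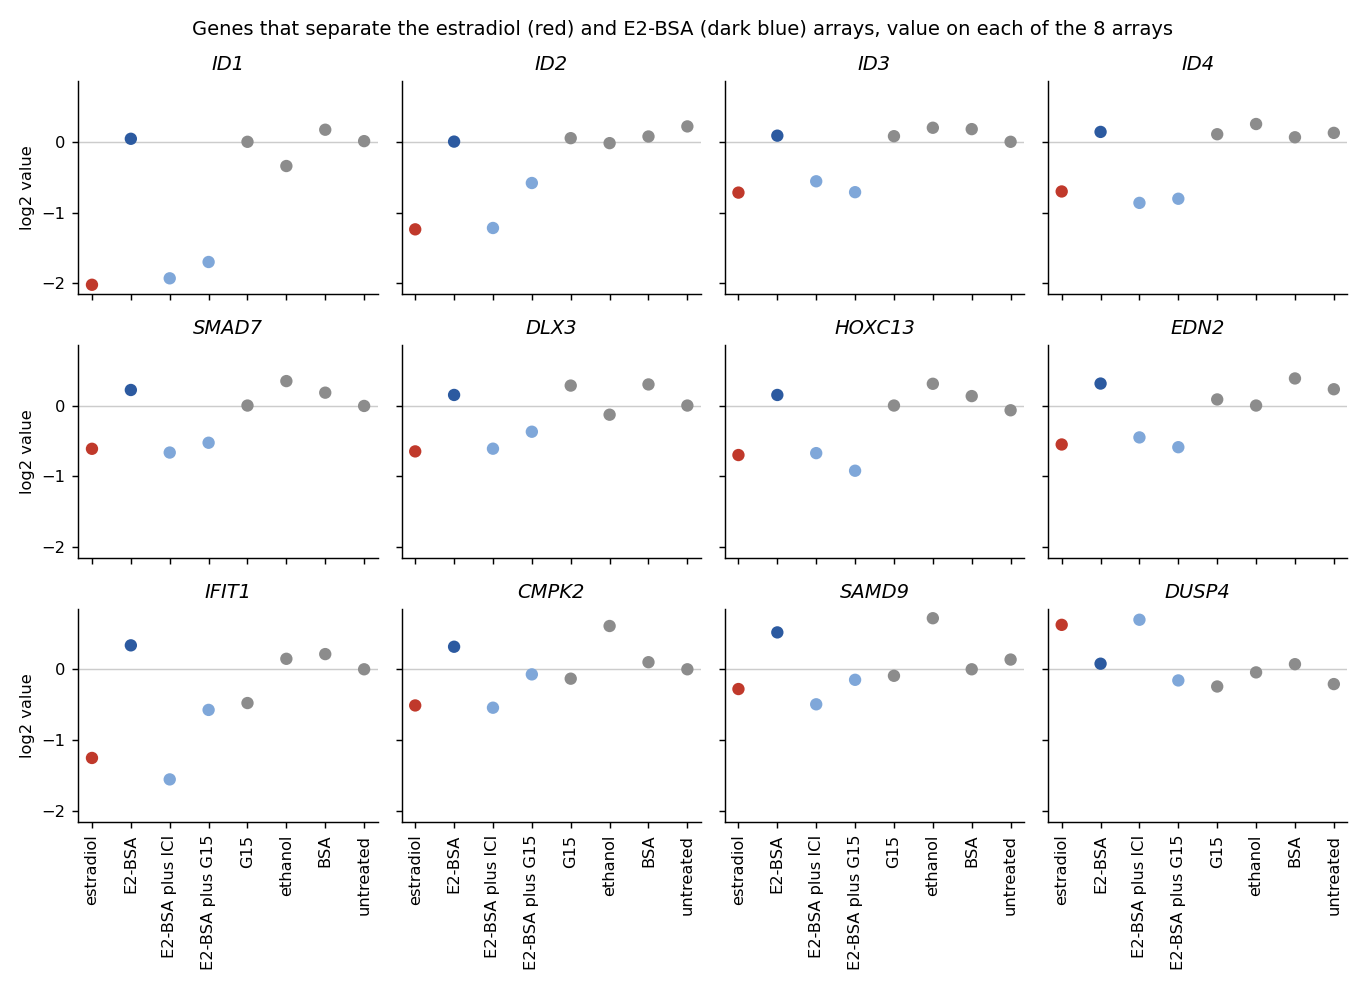
Log2 value (centred for each probe set) of 12 genes on the 8 arrays, 1 point per array, with estradiol in red, E2-BSA in dark blue, the E2-BSA plus antagonist arrays in light blue and the rest in grey. In the ID genes, SMAD7, DLX3, HOXC13 and EDN2, the red and light blue points lie below the dark blue and grey ones, with ID1 at -2.02 for estradiol and 0.04 for E2-BSA.

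Interferon-induced genes were the other group among the lowest. IFIT1 was at -1.25 with estradiol, against 0.34 with E2-BSA, a difference of -1.59 (3.01-fold). It was at -1.56 with E2-BSA plus ICI, -0.57 with E2-BSA plus G15, -0.48 with G15, 0.15 with ethanol, 0.21 with BSA and 0.00 when untreated. E2-BSA plus ICI was thus lowest and estradiol next to it, and E2-BSA held the highest value of the 8 arrays. IFIT3 differed by -0.67, IFIT2 by -0.25 and IFIT5 by -0.22, so all 4 measured IFIT genes were below 0, with a median of -0.46.

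CMPK2, an interferon-induced mitochondrial nucleotide kinase, was at -0.51 with estradiol, against 0.32 with E2-BSA. It was at -0.54 with E2-BSA plus ICI, -0.07 with E2-BSA plus G15, -0.13 with G15, 0.61 with ethanol, 0.10 with BSA and 0.00 when untreated. SAMD9, an interferon-induced restriction factor of poxviruses, was at -0.28 with estradiol, against 0.52 with E2-BSA, -0.49 with E2-BSA plus ICI, -0.15 with E2-BSA plus G15, -0.09 with G15, 0.72 with ethanol, 0.00 with BSA and 0.14 when untreated. For both genes ethanol was highest and E2-BSA came next to it, so the estradiol minus E2-BSA differences of -0.83 and -0.80 draw on values at both ends.

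Of 34 measured interferon-stimulated genes, 25 were below 0, beside 52.6% of all genes, and the median difference was -0.20. Lower at 1.5-fold were 4 of the 34 (IFIT1, CMPK2, SAMD9 and IFIT3), beside 0.111% of all genes. HERC5, a ligase for the ubiquitin-like protein ISG15, ran the other way at 0.49 and the antiviral GTPase MX2 at 0.31, and these examples were picked once their values were known. BSA minus untreated gave this list a median of 0.12 and 7 of 34 genes below 0. Genes that sense RNA or carry the interferon signal, 15 in all, had a median of -0.04 and none at 1.5-fold. EIF2AK2, a kinase that senses double-stranded RNA, differed by -0.25, the signalling kinase TBK1 by -0.14 and the interferon IFNL1 by 0.30.

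Other genes lower at 1.5-fold are of mixed function. EDN2, an endothelin peptide, was at -0.55 with estradiol, against 0.31 with E2-BSA, -0.45 with E2-BSA plus ICI, -0.59 with E2-BSA plus G15, 0.09 with G15, 0.00 with ethanol, 0.38 with BSA and 0.23 when untreated. HOXC13, a homeobox factor of hair and nail, was at -0.70 with estradiol, against 0.15 with E2-BSA, -0.67 with E2-BSA plus ICI, -0.92 with E2-BSA plus G15, 0.00 with G15, 0.31 with ethanol, 0.13 with BSA and -0.07 when untreated. In both genes the 3 lowest arrays were estradiol and the E2-BSA plus antagonist arrays.

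CDKN1A, the cell-cycle inhibitor p21, was at -0.71 with estradiol, against 0.00 with E2-BSA, -0.51 with E2-BSA plus ICI and -0.64 with E2-BSA plus G15. It stood at 1.26 with ethanol, 0.25 with G15, 0.13 with BSA and -0.06 when untreated. PFKFB3, which sets the pace of glycolysis, was at -0.55 with estradiol, against 0.21 with E2-BSA, -0.52 with E2-BSA plus ICI and -0.76 with E2-BSA plus G15. It stood at 1.28 with ethanol, 0.07 with G15, 0.00 with BSA and -0.10 when untreated. In CDKN1A and PFKFB3 too, the 3 lowest arrays were estradiol and the E2-BSA plus antagonist arrays. KANK4, a member of a family of cytoskeletal adaptor proteins, was at -0.30 with estradiol, against 0.54 with E2-BSA, which was the highest of the 8 arrays. KANK4 was also below 0 with ethanol, at -0.35. GPRASP3 differed by -0.70, and untreated was its highest array at 0.46.

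The genes nearest the 2-fold limit were ID2 at -1.24 inside it and EDN2 at -0.86, HOXC13 at -0.85 and KANK4 at -0.85 outside it. Nearest the 1.5-fold limit, the histone gene H3C2, SCAND3 and LOC730101 lay inside at -0.59, -0.59 and -0.60, and the stress-induced mTOR inhibitor DDIT4 (-0.58), the transcription factor SOX9 (-0.57) and SLC25A21 (-0.57) lay outside. On the higher side, LINC03002 at 0.93 was closest to 2-fold.

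**Figure D3:**
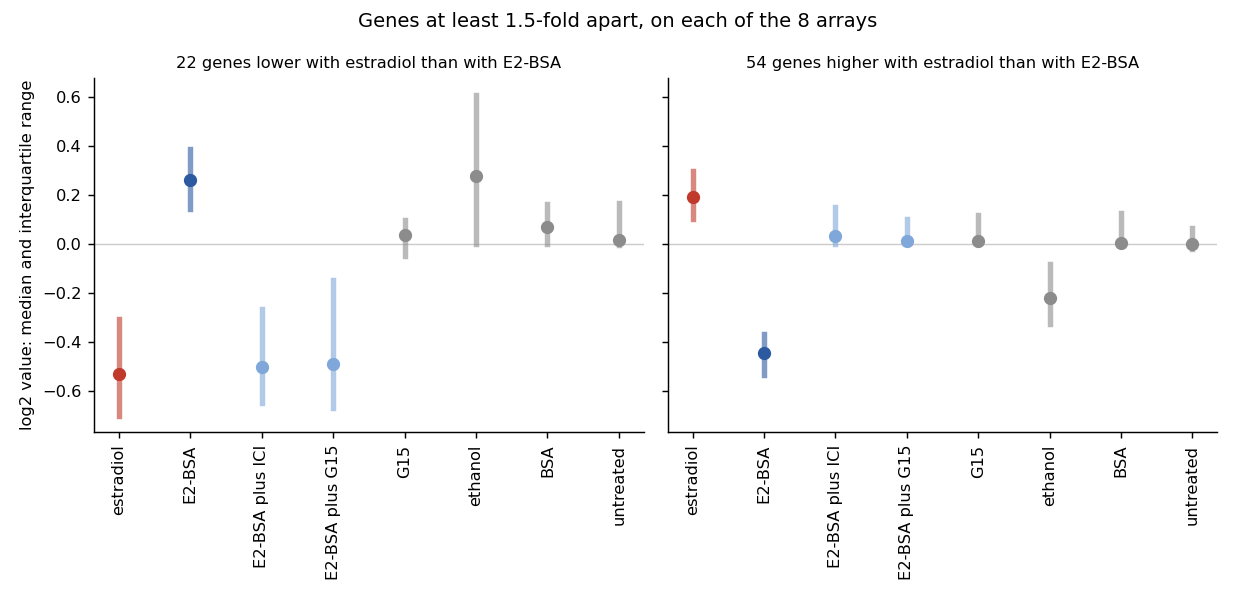
Median (point) and interquartile range (bar) of the log2 values on each array, for the 22 genes lower and the 54 genes higher at 1.5-fold with estradiol than with E2-BSA. The lower genes have medians of -0.53 with estradiol and 0.26 with E2-BSA and are also low on both E2-BSA plus antagonist arrays, and the higher genes have medians of 0.19 with estradiol and -0.44 with E2-BSA.

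The genes chosen at 1.5-fold were then described on all arrays, where the values of the estradiol and E2-BSA arrays had chosen them. The 22 lower genes had a median of -0.53 with estradiol and 0.26 with E2-BSA. On arrays that took no part in the choice, their median was -0.50 with E2-BSA plus ICI, -0.49 with E2-BSA plus G15, 0.04 with G15, 0.28 with ethanol, 0.07 with BSA and 0.02 when untreated. With E2-BSA plus ICI minus BSA, 11 of the 22 genes were lower at 1.5-fold, where 0.319% of all genes were. With E2-BSA plus G15 minus untreated, 9 of the 22 were, where 0.197% of all genes were. These comparisons share no array with each other or with estradiol minus E2-BSA.

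Each array was then set against the hormone-free ones for the lower genes. Estradiol minus untreated was lower at 1.5-fold in 11 of the 22 genes, beside 0.0910% of all genes, and estradiol minus BSA in 12, beside 0.288%. E2-BSA minus untreated was higher at 1.5-fold in 0 of the 22, beside 0.111% of all genes, and E2-BSA minus BSA in 1, beside 0.339%. These comparisons share arrays with the one that chose the genes and are given as values only. Estradiol was the lowest of the 8 arrays in 9 of the 22 genes (40.9%), beside 6.43% of all genes. E2-BSA was the highest in 4 (18.2%), which is near its share of 14.3% of all genes.

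Ethanol is the vehicle of estradiol, and the ethanol array stood apart from all others, with a standard deviation over genes of 0.304 for ethanol minus untreated. A list of 21 inflammatory NF-kB genes had a median of 1.90 on it and between -0.08 and 0.04 on the other 7 arrays. Estradiol minus E2-BSA does not use the ethanol array, and whether the estradiol cells received ethanol is not stated in their labels. On estradiol minus E2-BSA that list had a median of -0.05, with none at 1.5-fold.

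For the 54 higher genes the E2-BSA array stood low. E2-BSA was the lowest of the 8 arrays in 45 of them (83.3%), beside 13.7% of all genes, and estradiol the highest in 26 (48.1%), beside 5.55% of all genes. These shares use the values that chose the genes. Their median was 0.19 with estradiol and -0.44 with E2-BSA, and -0.22 with ethanol. On the other 5 arrays it lay between 0.00 and 0.03. Estradiol minus BSA reached 1.5-fold in either direction in 0 of the 54, beside 0.425% of all genes, and estradiol minus untreated in 2, beside 0.177%. E2-BSA minus BSA was lower at 1.5-fold in 18, beside 0.662% of all genes. On ethanol minus untreated, which uses neither array, 45 of the 54 genes were below 0, beside 56.0% of all genes.

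Genes with the largest positive differences were of varied kinds. LINC03002, a noncoding RNA, was at 0.23 with estradiol, against -0.69 with E2-BSA, 0.21 with E2-BSA plus ICI, 0.01 with E2-BSA plus G15, 0.00 with G15, -0.16 with ethanol, -0.02 with BSA and 0.12 when untreated. MED24, a subunit of the Mediator complex that links nuclear receptors to RNA polymerase II, was at 0.36 with estradiol, against -0.37 with E2-BSA, and between -0.17 and 0.15 on the other 6 arrays. LRRC32, a docking receptor for latent TGF-beta, was at 0.46 with estradiol, against -0.31 with E2-BSA, and at -0.29 with ethanol. TPBGL (0.86), ABHD16B (0.85), MIR4313 (0.78), TSGA13 (0.74), BTBD17 (0.73), RNF39 (0.70) and CPN1 (0.70) were other differences among the highest.

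The higher genes also differ in kind from all genes. Of the 54, 53 have 1 probe set (98.1%), beside 46.8% of all genes, and 35 are protein coding (64.8%), beside 83.5% of all genes. Of the 22 lower genes, 17 have 1 probe set and 20 are protein coding. The part of the number of probe sets in these counts was not tested. The level of expression was removed by the centring, so whether these genes are expressed in the cells cannot be read from the values.

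Immediate early genes and inhibitors of MAP kinase signalling, both linked to growth factor signals, were described next. FOSL1, an AP-1 subunit, was the only immediate early gene at 1.5-fold and stood at 0.28 with estradiol, against -0.39 with E2-BSA. It was at 0.00 with E2-BSA plus ICI, 0.00 with E2-BSA plus G15, -0.03 with G15, 0.23 with ethanol, 0.01 with BSA and -0.40 when untreated, so that untreated cells were as low as E2-BSA cells. EGR1, an immediate early zinc finger factor, was at 0.33 with estradiol, against -0.23 with E2-BSA, 0.56 with E2-BSA plus ICI, 0.08 with E2-BSA plus G15, -0.05 with G15, 1.38 with ethanol, -0.35 with BSA and -0.46 when untreated. FOS was at 0.35 with estradiol, against -0.13 with E2-BSA, and at 2.47 with ethanol.

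Of 27 immediate early genes, 20 were above 0 and 7 below, beside 8853 and 10407 of all 19775 genes, with a median of 0.07. On BSA minus untreated their median was 0.08, as large without any hormone. With each form set against its own reference (estradiol minus ethanol, less E2-BSA minus BSA), the difference turned to -1.16 for EGR1, -2.08 for FOS and -1.09 for the list median. DUSP4, a phosphatase that switches off MAP kinases, was at 0.63 with estradiol, against 0.08 with E2-BSA, 0.70 with E2-BSA plus ICI, -0.16 with E2-BSA plus G15, -0.24 with G15, -0.04 with ethanol, 0.07 with BSA and -0.21 when untreated. Its difference of 0.55 was under 1.5-fold, and its 3 probe sets were all positive. DUSP4 was thus high with estradiol and with E2-BSA plus ICI, and not with E2-BSA plus G15.

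Of the 18 feedback inhibitors of MAP kinase signalling, 15 were above 0 and 2 below, beside 8853 and 10407 of all 19775 genes. The list median was 0.09, with none at 1.5-fold. DUSP8 differed by 0.40, PHLDA1 by 0.31, SPRY2 by 0.28 and DUSP6 by 0.27. The list median on BSA minus untreated was 0.01, and with each form against its own reference it turned to -0.11.

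**Figure D4:**
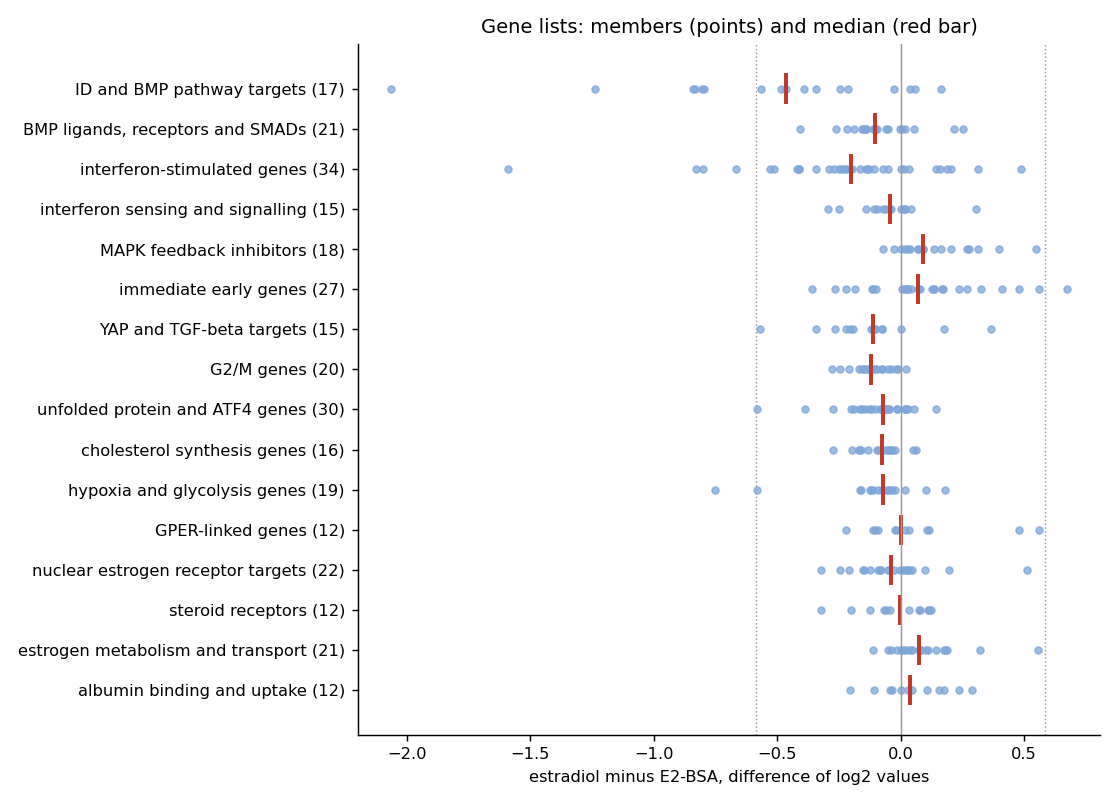
Estradiol minus E2-BSA (difference of log2 values) for the members of 16 gene lists, with 1 point per gene and the list median as a red bar; the number of measured genes is in brackets and dotted lines are 1.5-fold. The ID and BMP target list has the lowest median (-0.46) of the lists drawn, followed by the interferon-stimulated genes (-0.20), and the MAPK feedback inhibitors have the highest (0.09).

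As gene means, the receptors and most known estrogen targets differed little. ESR1 differed by 0.11, ESR2 (estrogen receptor beta) by -0.07, GPER1 by 0.11 and ERBB2 by -0.14. The probe sets of GPER1 were opposed, at -0.31 and 0.54. Those of ESR2 (6 probe sets) ran between -0.49 and 0.36, and those of ESR1 (9 probe sets) between -0.04 and 0.49. Of 22 targets of nuclear estrogen receptors, 13 were below 0, beside 52.6% of all genes. None reached 1.5-fold and the list median was -0.04. TFF1, a secreted trefoil peptide and classical target, was at 0.16 with estradiol, against -0.35 with E2-BSA, 0.17 with E2-BSA plus ICI, 0.09 with E2-BSA plus G15, 0.00 with G15, -0.20 with ethanol, 0.08 with BSA and -0.30 when untreated. NRIP1, a corepressor of nuclear receptors, differed by -0.32.

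Of 12 genes linked to GPER signalling, 6 were below 0 and the median was 0.00. The list ran between CCN2, a secreted matrix protein, at -0.22 and EGR1 at 0.56. Of 21 genes of estrogen metabolism and transport, 17 were above 0, beside 8853 of all 19775 genes. The list median was 0.07, with none at 1.5-fold. CYP1A1, which hydroxylates estradiol, was at 0.33 with estradiol, against -0.23 with E2-BSA, 0.47 with G15, -0.36 with ethanol and -0.53 with BSA. BSA minus untreated for CYP1A1 was -0.53, about as large without hormone. Genes that bind or take up albumin, 12 in all, had a median of 0.04 with 4 below 0 and none at 1.5-fold, with the endocytic receptors CUBN at 0.29 and LRP2 at 0.23 and the clathrin heavy chain CLTC at -0.21.

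Among housekeeping programmes, small shifts covered many members. Over all genes, 52.6% were below 0 on estradiol minus E2-BSA and 49.4% on BSA minus untreated. Of 20 genes of G2 and mitosis 19 were below 0, with a median of -0.12. BSA minus untreated gave -0.14 with 16 of 20 below 0, and with each form against its own reference the median turned to 0.30. Fatty acid synthesis genes had a median of -0.13 with 10 of 12 below 0, and BSA minus untreated gave a similar -0.11 with 9 of 12. Genes of the unfolded protein and ATF4 response had -0.07 with 24 of 30 below 0, beside -0.03 with 19 of 30 on BSA minus untreated. Cholesterol synthesis genes had -0.08 with 14 of 16 below 0, beside -0.03 with 9 of 16 on that pair. Hypoxia and glycolysis genes had -0.07 with 16 of 19 below 0, beside 0.04 with 8 of 19. YAP and TGF-beta targets had -0.11 with 12 of 15 below 0, beside -0.05 with 9 of 15. Only PFKFB3 reached 1.5-fold in these 6 lists. On single arrays, their medians lay between -0.03 and 0.00 with estradiol and between 0.05 and 0.11 with E2-BSA. With BSA they lay between -0.04 and 0.01, and when untreated between -0.01 and 0.10.

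Marker lists of other cell types gave medians of 0.06 for immune cells (6 genes), 0.04 for fibroblasts (8 genes) and -0.01 for endothelium (8 genes), with none at 1.5-fold. Because the level is removed, the markers of the line itself could not be used to check its label.

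The probe sets of some genes named above disagree, so that the gene mean hides larger differences. Of the 41091 probe sets that carry 1 gene, 10 were lower at 2-fold and 1 was higher. No such count is given for BSA minus untreated. The 10 came from 8 genes: ID1, ID2, ID4, IFIT1, IFIT2, IFIT3, DLX1 and DLX2, the last pair named after their values were seen. For ID4, the 5 probe sets gave -1.39, -1.39, -0.88, -0.59 and 0.03. For IFIT3 they gave -1.20 and -0.14, and for IFIT2 -1.01 and 0.51. DLX1 had -1.12 and -0.02 and DLX2 -1.02 and 0.05, and both genes are homeobox factors of the DLX family. On the probe set of DLX1 at -1.12, the value was -0.83 with estradiol, against 0.28 with E2-BSA, -0.83 with E2-BSA plus ICI, -0.88 with E2-BSA plus G15, 0.27 with G15, 0.27 with ethanol, 0.00 with BSA and 0.07 when untreated. The 8 genes therefore include all ID genes except ID3, whose 1 probe set was at -0.80.

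On the higher side 1 such probe set passed 2-fold. It is 1 of 4 for SCD5, a fatty acid desaturase, and was chosen after its value was seen. It stood at 1.54 with estradiol, against -0.01 with E2-BSA, and at most at 0.33 on the other 6 arrays, while the remaining probe sets of SCD5 gave between 0.00 and 0.34.

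**Figure D5:**
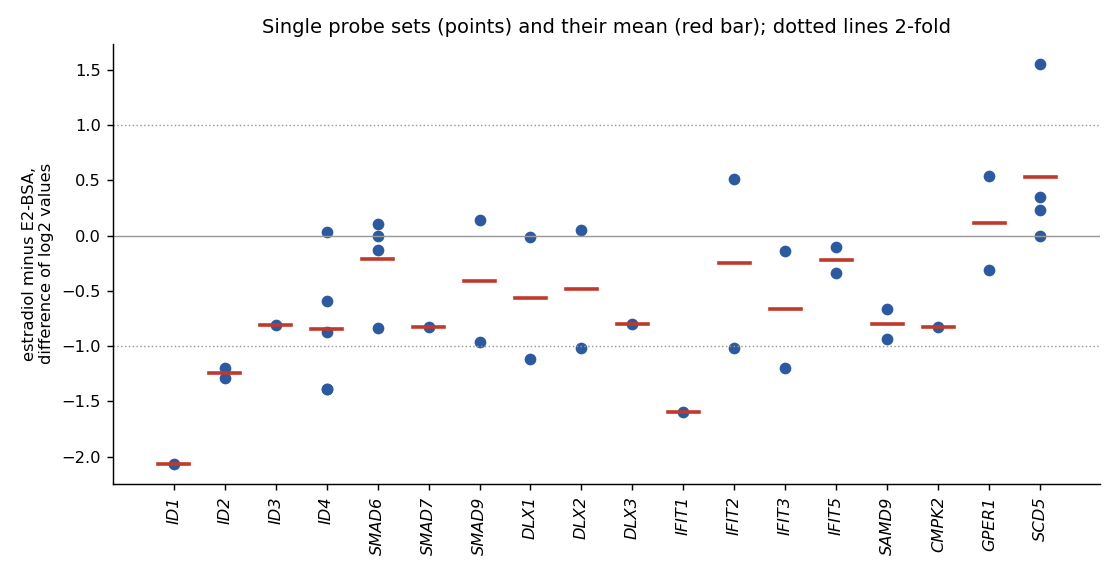
Estradiol minus E2-BSA (difference of log2 values) of each probe set (points) and the mean per gene (red bar) for 18 genes; dotted lines are 2-fold. ID4, DLX1, DLX2, IFIT2, IFIT3 and SCD5 have probe sets beyond a dotted line and a mean that is not.

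Because no condition was repeated, an interval can only borrow the spread of other arrays. With the untreated, ethanol and BSA arrays treated as 1 group in limma, the 95% intervals of the difference were -1.21 to -0.40 for ID3, -1.22 to -0.46 for ID4, -1.39 to -0.28 for SMAD7, -1.46 to -0.14 for DLX3 and -1.46 to -0.26 for EDN2. The interval for DUSP4 was 0.07 to 1.03, and those for CMPK2 (-1.77 to 0.11) and EGR1 (-2.26 to 3.39) span 0. Intervals for CDKN1A, PFKFB3, SAMD9 and IFIT3 also span 0 in this pool, but not without the ethanol array. These readings depend on the ethanol array: without it in the pool the interval was -0.18 to 1.28 for DUSP4, -1.17 to -0.49 for CMPK2 and 0.20 to 0.92 for EGR1. For the receptors, the intervals were -0.23 to 0.45 for ESR1 and -0.21 to 0.44 for GPER1. Each lone array is assumed to vary as the pooled ones do, and the intervals are not adjusted for the choice of genes. If that held and no gene differed, a share of about 0.05 of all genes would still have an unadjusted p under 0.05. In limma 0 of 19775 genes had an adjusted p under 0.05, and 374 had an unadjusted p under 0.05. With the ethanol array left out of the pool, these counts were 0 and 1021.

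Quality controls differed as well. The 18 hybridization control probe sets had a median of -0.18 with estradiol, against -0.25 with E2-BSA, 0.28 with BSA and 0.13 when untreated. The 27 poly-A spike probe sets differed by -0.17 in the median between estradiol and E2-BSA. The 5′ probe set of ACTB differed by -0.24 and its 3′ probe set by -0.02, and for GAPDH these were -0.06 and -0.01. The part of labelling or RNA quality in the results above was not tested.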

How the data were processed

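Affymetrix expression arrays of 54675 probe sets were used, 1 for each of 8 conditions, grouped by their titles. The deposited values were taken to be on a log2 scale. The sources used here do not give the authors' summarization, normalization or log base. Values run between -2.27 and 7.85, and at most 4 of the 8 arrays lie above or below 0 in any probe set, as after centring on a median, so levels are removed. Per the file's platform annotation, 41091 probe sets carry 1 gene (41037 matched a current record), 1801 several, 11721 none and 62 are controls. Probe sets of 1 gene were averaged, giving 19775 genes, of which 9252 had 1 probe set, with no filter on low values.

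Differences were counted at 2-fold (1 on the log2 scale) and 1.5-fold (0.585). With 1 array per condition there is no test, and limma 3.58.1 with the hormone-free arrays pooled is an alternative. Promoter letters came from RefSeq GRCh38.p14. Scripts were tested on simulated data. The members and the 37 gene lists were chosen with earlier results of these data known. Named genes were those at 2-fold, up to 15 each way at 1.5-fold with probe sets in 1 direction and a difference larger than BSA minus untreated, list members at 1.5-fold, the 4 largest of each list described, fixed receptors and family members, and the 3 nearest to each side of a threshold. Python 3.11.15 and R 4.3.3 were used.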

Additional observations from a re-analysis of the deposited data

Results flagged for a closer look

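The 11721 probe sets without a gene name take no part in the gene comparison. Of these, 5 stood higher with estradiol than with E2-BSA by 2-fold or more and above the ethanol, BSA and untreated arrays. They were the only probe sets without a gene name at 2-fold in either direction. Over all probe sets except the controls, 6 were higher and 11 lower at 2-fold. No such count is given for BSA minus untreated. Probe set 1558048_x_at differed by 6.32, at 6.32 with estradiol against 0.00 with E2-BSA, and the highest of the 3 hormone-free arrays was -0.01. Probe set 234675_x_at differed by 2.31, at 2.38 with estradiol against 0.07 with E2-BSA, and 224549_x_at by 2.02, at 1.83 with estradiol against -0.19 with E2-BSA. Probe set 234287_at differed by 1.14, at 0.21 with estradiol against -0.92 with E2-BSA, its lowest array. With BSA it was at 0.11, close to the estradiol value. Probe set 243489_at differed by 1.07, at 0.95 with estradiol against -0.12 with E2-BSA. The names of 3 of the 5 probe sets, ending in _x_at, mark probes that can match several transcripts.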

How the results depend on the processing

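The difference between estradiol and E2-BSA has no replicate, so limits come from the scaling, the choice of probe sets and the unstated log base. The main counts, 0 higher and 3 lower at 2-fold and 54 higher and 22 lower at 1.5-fold, became in that order 5, 13, 188 and 91 with arrays scaled to one interquartile range, 9, 11, 165 and 87 after quantile normalization, and 1, 8, 157 and 98 with the probe set of largest standard deviation. They became 68, 316, 921 and 1153 with each form set against its own reference (ethanol and BSA), and 10, 15, 375 and 122 with values read as natural logs. Without probe sets at an exact 0 on either array, a choice made after seeing the data, 5 genes were lower at 2-fold, 82 higher and 40 lower at 1.5-fold. ID1 was at -3.64 with interquartile scaling, -1.73 after quantile normalization and -1.55 against own references, and ID2 was at -2.21 and IFIT1 at -2.53 with interquartile scaling. The ID and BMP target median was -0.80 with the probe set of largest standard deviation and -0.72 against own references. None of the values above changed sign, and the cause of these shifts was not tested. Signs turned elsewhere: against own references the medians were -1.09 for immediate early genes, -0.11 for MAPK feedback inhibitors and 0.30 for G2 and mitosis genes, and ERBB2 was at 0.09. With the probe set of largest standard deviation GPER1 was at -0.31 and ESR2 at 0.36, and list medians close to 0 also turned under several settings. Centring each array, the median of probe sets, leaving out _x_at and _s_at probe sets and a filter on standard deviation kept all 4 counts within 1.5 times. With limma the smallest adjusted p was 1, and 0.780 with the ethanol array left out of the pool. No paired analysis was possible because each condition has 1 array.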
